A study of Mus musculus with 12 samples.

Results

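The 388 genes described here are the protein-coding genes of mouse chromosome 19 that were expressed in 4T1 mammary tumours, taken in 3 segments: 194 proximal genes starting below 20 Mb, 161 middle genes starting between 20 and 50 Mb and 33 distal genes starting above 50 Mb. They are those with a mean over the 12 tumours of at least 5 CPM. They come from the 721 protein-coding genes of the chromosome, which has 1458 annotated genes of any kind. For this floor, CPM is the count of a gene as a share of the column total in parts per 1000000. Levels of groups and of single tumours below are CPM on library sizes scaled between tumours. The whole table held 57186 genes, and 10950 protein-coding genes of all chromosomes passed the same floor. The members were chosen by their mean level over all 12 tumours, and the borders at 20 and 50 Mb were selected on the differences between the groups in these same tumours, so the segment values below are a description and carry no test. Just outside the floor lay Syt7 and Nmrk1, both at a mean of 4.99 CPM, and just inside it lay Ifit3b at 5.02 CPM and Tmem252 at 5.21 CPM.

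RNA of whole tumours was sequenced as a poly(A) library from 2 groups of 6 mouse tumours each. The WT tumours were grown from the parental line 4T1, mouse mammary carcinoma cells of the triple-negative kind, and the Tn tumours from 4T1 cells in which Cosmc had been silenced by CRISPR/Cas9. Cosmc, listed in the annotation as C1galt1c1, is needed to fold the galactosyltransferase that lengthens O-glycans beyond their first sugar, and cells without it display the short Tn antigen. Whether the Tn cells were 1 clone, and the strain, sex and age of the mice, are not given in the sources used here, and all tumours carry 1 batch label. The library names of all Tn tumours carry lower numbers than those of all WT tumours. An effect of the order behind these numbers cannot be told apart from the group. The submitters picked tumours of different sizes for sequencing. A whole tumour also holds host cells, so fewer cells of a type and less RNA per cell cannot be told apart. The p-values measure the spread between these tumours.

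Genes lie along a chromosome in blocks that are copied, lost and packed into chromatin together. In carcinoma lines, neighbouring genes therefore often share a gain or loss of the DNA that carries them, and clones of 1 line can differ in such blocks. Neighbours can also share a level because gene families and genes of 1 cell type sit side by side, as the Ms4a genes of leukocytes and the Ifit genes of the interferon response do on this chromosome. DNA copy number and chromatin were not measured in these tumours.

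The level along the chromosome changed near 20 Mb, so the stretches just upstream of the last 2 proximal and the first 2 middle members are shown, to place that border and to set the promoter sequence of its sides next to each other. Each is the 200 bases before the gene's annotated start in GRCm39, read 5′ to 3′ on the strand of the gene, with the CpG dinucleotides in capitals. None of these bases is exonic in the annotation used. The proximal pair is D030056L22Rik on the plus strand, chr19:18690357-18690556, and Trpm6 on the plus strand, chr19:18727147-18727346. The middle pair is Anxa1 on the minus strand, chr19:20368309-20368508, and Zfand5 on the plus strand, chr19:21249442-21249641.
D030056L22Rik: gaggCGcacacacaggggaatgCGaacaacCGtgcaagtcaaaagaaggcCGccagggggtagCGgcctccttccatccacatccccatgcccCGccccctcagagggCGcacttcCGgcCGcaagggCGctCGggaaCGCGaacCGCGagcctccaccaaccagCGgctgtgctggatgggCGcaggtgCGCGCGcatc
Trpm6: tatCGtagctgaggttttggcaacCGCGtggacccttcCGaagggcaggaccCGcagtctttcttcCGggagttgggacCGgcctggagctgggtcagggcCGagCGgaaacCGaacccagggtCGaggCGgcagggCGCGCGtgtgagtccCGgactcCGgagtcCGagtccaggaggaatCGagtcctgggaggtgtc
Anxa1: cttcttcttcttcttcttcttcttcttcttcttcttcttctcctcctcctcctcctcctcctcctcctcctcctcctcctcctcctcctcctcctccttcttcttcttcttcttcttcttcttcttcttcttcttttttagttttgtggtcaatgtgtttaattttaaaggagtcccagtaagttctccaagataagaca
Zfand5: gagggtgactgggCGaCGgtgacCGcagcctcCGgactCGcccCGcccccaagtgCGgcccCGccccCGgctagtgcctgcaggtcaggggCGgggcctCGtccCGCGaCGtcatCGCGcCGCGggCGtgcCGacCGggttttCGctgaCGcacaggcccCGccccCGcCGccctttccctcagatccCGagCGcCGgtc

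The windows of D030056L22Rik, Trpm6 and Zfand5 held 20, 19 and 29 CpG dinucleotides, whereas that of Anxa1 held 0 and consisted largely of CTT and CTC repeats. CpG-rich windows stood on both sides of the border. Over all members the median number of CpG dinucleotides in the 200 upstream bases was 12 in the proximal, 14 in the middle and 13 in the distal segment, against 12 over the 10950 protein-coding genes. The GC box GGGCGG, searched on both strands, was present in 47.9% of proximal, 55.9% of middle and 60.6% of distal windows and in 53.1% of windows of all 10950 genes. These are matches of letters and say nothing about binding.

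Column totals ran from 113575859 to 156880766 counts, and the members took between 3.19% and 3.78% of them. C1galt1c1 itself had 19.6 ± 3.05 CPM in WT tumours and 11.3 ± 0.775 CPM in Tn tumours (mean ± SD, n = 6 in each group) and no overlap between the groups. On the log2 scale it fell by 0.80 (SE 0.11), with a Benjamini-Hochberg adjusted p of 0.000201 in edgeR's quasi-likelihood fit of 19255 genes, which gives every adjusted p below. All 7 epithelial markers were detected in every tumour, with summed levels of 2239 to 4884 CPM in WT and 2109 to 3690 CPM in Tn tumours, and 2 of them were lower and 0 higher in Tn tumours. Host cell markers differed between the groups. Of 7 leukocyte markers 6 were higher in Tn tumours (summed level 811 to 1048 CPM in WT, 854 to 2269 CPM in Tn), of 7 T cell markers 7 were higher (6.71 to 21.2 CPM against 44.9 to 410 CPM), and of 7 fibroblast markers 6 were lower and 1 was higher (7671 to 20051 CPM against 3145 to 4510 CPM). Of 6 endothelial markers 4 were lower (272 to 475 CPM against 186 to 362 CPM). Single tumours stood apart in some markers: Tn tumour 4 had 669 CPM of B cell markers against at most 12.6 CPM elsewhere, Tn tumour 6 had 2976 CPM of keratinocyte markers and WT tumour 6 had 1179 CPM of adipocyte markers.

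The proximal genes of chromosome 19 were mostly higher in Tn tumours. Their median log2 fold change, Tn over WT, was 0.35, or 1.27-fold, with quartiles of 0.14 and 0.53, and 163 of the 193 tested members lay above 0. The middle genes had a median of -0.10, with quartiles of -0.35 and 0.13, and the distal genes a median of -0.24, or 0.848-fold, with quartiles of -0.38 and -0.02. Only 59 of 161 middle and 8 of 33 distal members lay above 0. Over all 10950 protein-coding genes of the same floor the median was 0.05, so that the proximal segment stood 0.29 above it and the middle and distal segments 0.15 and 0.29 below it. Most proximal differences were small: 46 of 193 members differed by more than 1.5-fold and 17 by more than 2-fold, in either direction.

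**Figure D1:**
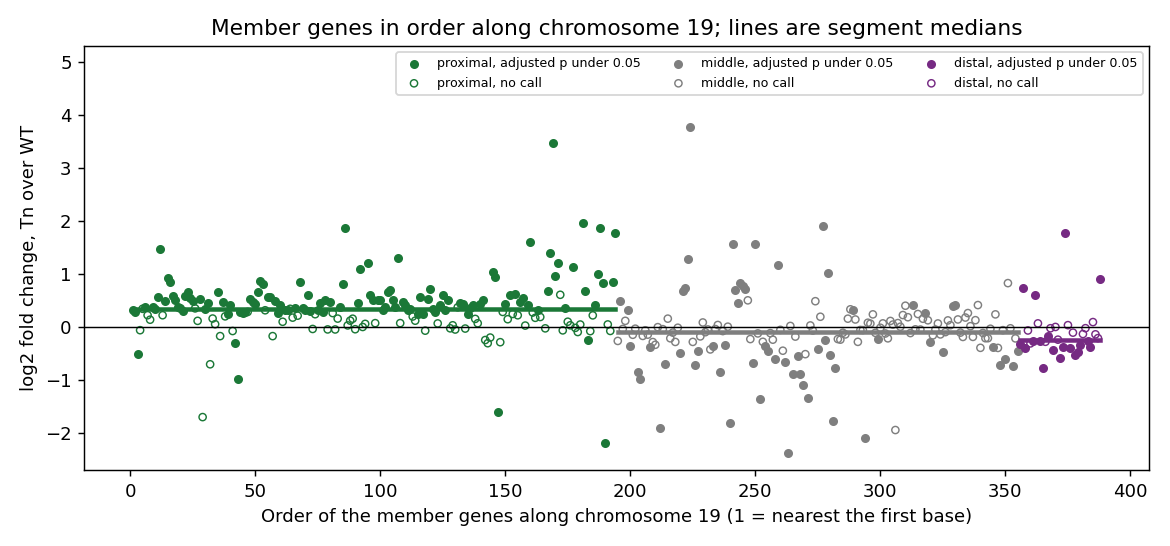
Log2 fold change, Tn over WT, of each tested member (vertical axis) against its order along chromosome 19 (horizontal axis). Filled points have an edgeR adjusted p under 0.05, open points have none, and the lines are the segment medians of 0.35, -0.10 and -0.24; the points of the proximal segment form a band above 0 that ends at the 20 Mb border.

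Among the 193 proximal members tested, 117 rose and 6 fell at an adjusted p under 0.05, and 70 had no call. Over all 19255 genes tested, 19.5% were called higher and 17.4% lower, 36.8% in all; over the 10939 tested protein-coding genes of the same floor, 25.4% were called higher and 17.7% lower. Because the borders were drawn with this contrast in view, nothing is read from the excess. The middle segment had 21 rises and 39 falls, or 16 and 55 with upper-quartile scaling, and the distal segment 4 rises and 15 falls. All 6 Tn tumours lay above all 6 WT tumours for 68 proximal, 6 middle and 2 distal members, and below them for 3, 18 and 7 members; the background for this was 8.81% and 8.35% of all genes tested, or 12.3% and 9.37% of the protein-coding genes of the same floor. The 1 member that was not tested, because the filter on low counts removed it, was Ms4a1, the B cell gene for CD20, which ran from 0 to 0.113 CPM in WT tumours and from 0.0164 to 125 CPM in Tn tumours, with 125 CPM in Tn tumour 4.

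The same order appeared inside each Tn tumour. For each tumour, the level of a segment was taken as the median over its members of log2 CPM minus the mean log2 CPM of that gene in WT tumours. In Tn tumours 1 to 6 the proximal level was 0.50, 0.32, 0.29, 0.22, 0.18 and 0.42, with a mean of 0.32 ± 0.12 (SD, n = 6), and in WT tumours it ran from -0.11 to 0.10. All 6 Tn tumours were above all 6 WT tumours in the proximal segment. The middle level in Tn tumours 1 to 6 was 0.11, -0.07, -0.15, -0.12, -0.31 and -0.09, against -0.10 to 0.08 in WT tumours. The distal level was -0.03, -0.15, -0.23, -0.18, -0.35 and -0.32, against -0.12 to 0.09 in WT tumours. Both of these ranges overlapped those of the WT tumours, with Tn tumour 1 the highest and Tn tumour 5 the lowest in each.

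The distal level minus the proximal level does not depend on how a library is scaled. It lay between -0.74 and -0.41 in the Tn tumours (mean -0.53 ± 0.11, SD, n = 6) and between -0.05 and 0.06 in the WT tumours (mean -0.01 ± 0.04, SD, n = 6), with no overlap. The WT values centre near 0 by construction, because each gene is set against its own WT mean. The middle level minus the proximal level lay between -0.51 and -0.34 in Tn and between -0.05 and 0.06 in WT tumours, again with no overlap. The distal level minus the middle level was smaller, between -0.23 and -0.05 in Tn and between -0.04 and 0.03 in WT tumours, ranges that nearly met. Tn tumours 1 and 6 had the highest proximal levels, and Tn tumour 6, the one with the highest keratinocyte markers, had the widest distance between the ends of the chromosome. The part of keratinocytes or other host cells in these levels was not tested.

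**Figure D2:**
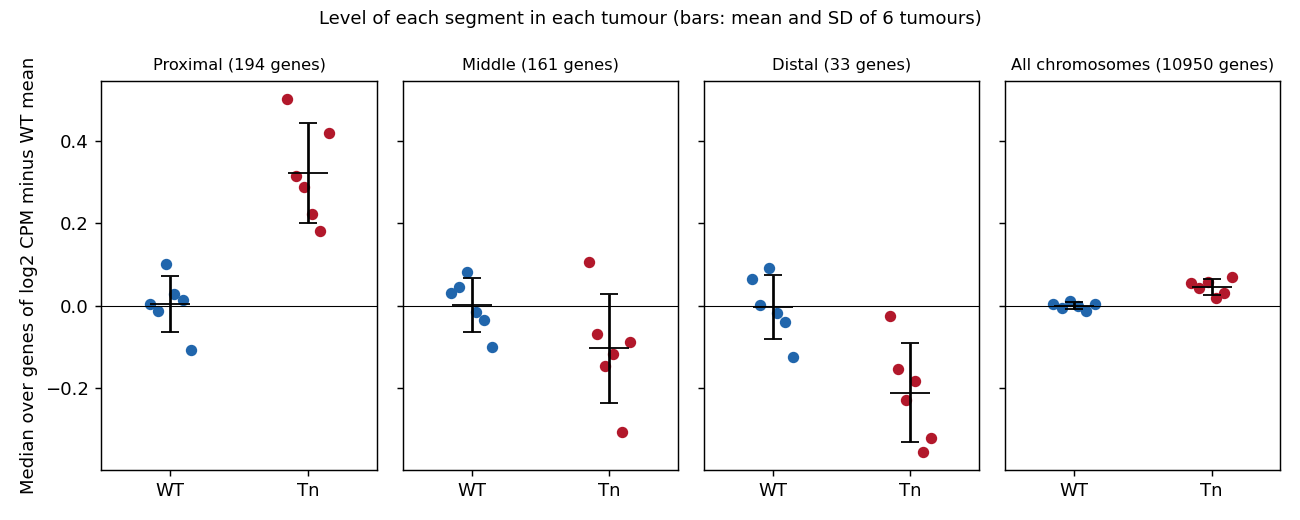
Level of each segment in each tumour (vertical axis, median over members of log2 CPM minus the WT mean) for WT and Tn tumours, with the 10950 protein-coding genes of all chromosomes on the right. Points are tumours and bars are the mean and SD of 6; the Tn tumours sit between 0.18 and 0.50 in the proximal panel, above all WT tumours, and between -0.35 and -0.03 in the distal panel.

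The share of members above their own WT mean fell from the proximal to the distal segment in every Tn tumour, but its proximal ranges overlapped between the groups. It was 72.2% to 88.7% of proximal members in the 6 Tn tumours, 21.7% to 61.5% of middle members and 12.1% to 45.5% of distal members. Among WT tumours, WT tumour 3 was high in all 3 segments, with 75.8%, 74.5% and 81.8%, and WT tumour 6 low, with 25.3%, 24.8% and 30.3%. The other WT tumours lay between 33.3% and 66.7%. In the proximal segment, WT tumour 3 was above the 72.2% of Tn tumour 5.

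Windows of 5 Mb, whose edges include the borders of the rule, showed a level stretch followed by a step between the fourth and the fifth window, both of which hold few members. The first 4 windows had median log2 fold changes of 0.35, 0.33, 0.32 and 0.32, with 39, 107, 36 and 12 members. The fifth window, from 20 to 25 Mb, had a median of -0.15 over 15 members, and no later window was above -0.04. The lowest was the eighth, from 35 to 40 Mb, with a median of -0.40 and 10 falls and 2 rises among its 20 members. The windows beyond 50 Mb had medians of -0.26, -0.28 and -0.14, but held only 9, 17 and 7 members, so that the distal values too rest on thinly filled windows. In the first and second windows all 6 Tn tumours were above all 6 WT tumours, whereas in the third and the fourth Tn tumour 5, at 0.06 and 0.03, fell within the WT range.

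**Figure D3:**
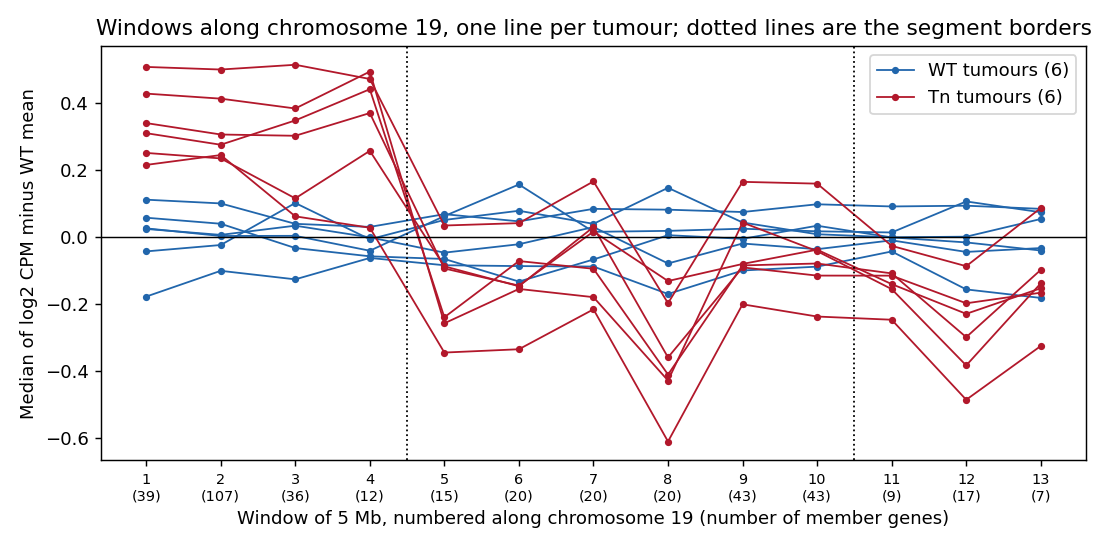
Median over the members of each 5 Mb window of log2 CPM minus the WT mean (vertical axis) for the windows in order along chromosome 19 (horizontal axis, number of members in brackets), 1 line per tumour. The Tn lines lie above the WT lines in the first and second windows, are lower from the fifth window on, and run between -0.61 and -0.13 in the eighth window.

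Chromosome 19 as a whole did not stand out in its median. At 0.12 it ranked 6 among 20 chromosomes, with ends of opposite sign. The distance between the highest and the lowest of its 10 Mb windows was 0.61, which ranked 2 of 20, after 0.66 on chromosome 11. Among 200 windows of 10 Mb over all chromosomes, the first and second of chromosome 19 ranked 3 and 5 from the highest and the window from 50 to 60 Mb ranked 8 from the lowest. These ranks are descriptions and were known when the segments were drawn.

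The 4 genes at each border followed the segment levels only in part. D030056L22Rik, an annotated protein-coding gene without a common name, had 29.5 to 42.0 CPM in WT tumours (median 37.4) and 49.1 to 78.0 CPM in Tn tumours (median 69.1). The groups did not overlap, and its log2 fold change was 0.85 (SE 0.12, edgeR adjusted p = 0.00027). Trpm6, a channel kinase that takes up magnesium, had 10.1 to 34.8 CPM in WT (median 19.9) and 50.6 to 98.8 CPM in Tn tumours (median 72.4), again without overlap, a change of 1.78 (SE 0.27, edgeR adjusted p = 0.000514). Beyond the border, Anxa1, the calcium-dependent phospholipid-binding protein annexin A1, had 529 to 819 CPM in WT (median 728) and 485 to 679 CPM in Tn tumours (median 599). The Anxa1 groups overlapped and its change of -0.26 did not pass the test (edgeR adjusted p = 0.0861), though it did with upper-quartile scaling, with column totals alone and without WT tumour 2 (adjusted p = 0.0442, 0.037 and 0.0212). Zfand5, a zinc finger protein that activates the proteasome, nevertheless rose by 0.49 (SE 0.10, edgeR adjusted p = 0.00296), from a median of 92.7 to one of 129 CPM, so the step was not a rule for every gene. At 50 Mb the last middle members were Gsto2, an omega-class glutathione transferase, at -0.21 without a call, and Itprip, which interacts with the inositol trisphosphate receptor, at -0.44. The first distal members were Xpnpep1, an aminopeptidase, at -0.31 and Add3, a subunit of the membrane skeleton protein adducin, at 0.73; no step was visible there.

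The proximal rises covered genes of general cell function. Of the RNA processing and translation list, 13 of 20 tested proximal members rose and 0 fell, with a list median of 0.34 against 0.35 for the whole segment. The lists of this and the next paragraphs share some genes with each other. Drap1, a corepressor of transcription, had 79.5 to 100.5 CPM in WT (median 90.3) and 141 to 189.8 CPM in Tn tumours (median 163), a change of 0.86 (SE 0.08, edgeR adjusted p = 3.82e-05). Polr2g, a subunit of RNA polymerase II, had 34.7 to 39.9 CPM in WT (median 38.9) and 50.1 to 58.3 CPM in Tn tumours (median 54.3), a change of 0.52 (SE 0.06, edgeR adjusted p = 6.43e-05). Sf3b2, a component of the U2 spliceosomal particle, had 280 to 350 CPM in WT and 394 to 495 CPM in Tn tumours, a change of 0.54 (SE 0.07, edgeR adjusted p = 0.000235). None of these 3 genes overlapped between the groups. The same list had 0 rises and 2 falls among 9 middle members and 1 rise and 1 fall among 2 distal members, Pdcd4 and Eif3a.

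Most mitochondrial genes of the proximal segment rose. Of 13 proximal members of that list 11 rose and 0 fell, with a median of 0.41, whereas of 11 middle members 0 rose and 1 fell, and of 2 distal members none was called. Mrpl11, a protein of the mitochondrial ribosome, rose by 0.41, and Trmt112, an activator of methyltransferases of transfer RNA and ribosomal RNA, by 0.51. The Trmt112 exons overlap those of another gene over 39.1% of their length, and reads that touch both genes are left uncounted by the settings in the file header, which use no strand.

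The cell cycle and chromosome list had rises in the proximal and falls in the other segments, the direction of most calls there. Its proximal share of rises was near the 60.6% of the whole segment. Of 18 proximal members 10 rose and 0 fell, of 11 middle members 0 rose and 4 fell, and of 5 distal members 0 rose and 3 fell. Cdk2ap2, a small protein associated with the kinase Cdk2, rose from a WT range of 35.2 to 50.1 CPM (median 41.9) to a Tn range of 58.8 to 104 CPM (median 82.3), a change of 0.93 (SE 0.14, edgeR adjusted p = 0.00036). Rad9a, a part of the clamp that senses DNA damage, rose by 0.59 and Ccdc85b, a coiled-coil repressor of transcription, by 0.56. The 4 falls of the middle segment, named after their values were seen, were Kif11 and Kif20b, kinesins of the mitotic spindle and of cytokinesis, at -0.61 and -0.67, Cep55, a protein of abscission, at -0.66 and Hells, a chromatin remodeller of replicating cells, at -0.89. Kif11 had 87.4 to 111 CPM in WT and 51.5 to 82.5 CPM in Tn tumours, and Hells 75 to 105 CPM and 34.9 to 62.2 CPM, both without overlap. Among distal members Smc3, a core subunit of cohesin, fell from a WT range of 123 to 142 CPM to a Tn range of 94.1 to 122 CPM, a change of -0.27 (SE 0.07, edgeR adjusted p = 0.0125), which lost its call without Tn tumours 4 and 6 and WT tumour 6 (adjusted p = 0.0714). Dclre1a, a nuclease that repairs DNA crosslinks, lay at -0.24 without a call, next to the distal median.

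Proximal members of the membrane traffic and signalling lists had rises and no falls, in a segment where only 3.11% of members fell. Of 9 proximal members of the traffic and cytoskeleton list 7 rose and 0 fell, of 10 middle members 0 rose and 3 fell, and of 7 distal members 1 rose and 3 fell, with list medians of 0.32, -0.18 and -0.13. Arl2, a small GTPase of tubulin folding, had 26.6 to 35.4 CPM in WT (median 30.0) and 39.6 to 61.9 CPM in Tn tumours (median 54.9), a change of 0.81 (SE 0.11, edgeR adjusted p = 0.000175) with no overlap. Vps51, a tethering factor of the Golgi, rose by 0.47, and Cfl1, the actin-severing protein cofilin and 1 of the 3 proximal members with the most counts, rose by 0.27 from a median of 909 CPM to one of 1079.7 CPM. Of 16 proximal members of the signalling list 6 rose and 0 fell, a smaller share of rises than the 60.6% of the segment. Of 12 middle members 1 rose and 4 fell, and of 9 distal members 2 rose and 5 fell. The cell death list did not have the order of the segments: 4 of 4 proximal members rose (median 0.50), 1 of 2 middle members rose and 1 fell (median 0.62), and 1 of 3 distal members rose (median 0.0017). Its proximal members include Gstp1, a glutathione transferase, at 0.49 and Rela, the p65 subunit of NF-kappa-B, at 0.32.

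**Figure D4:**
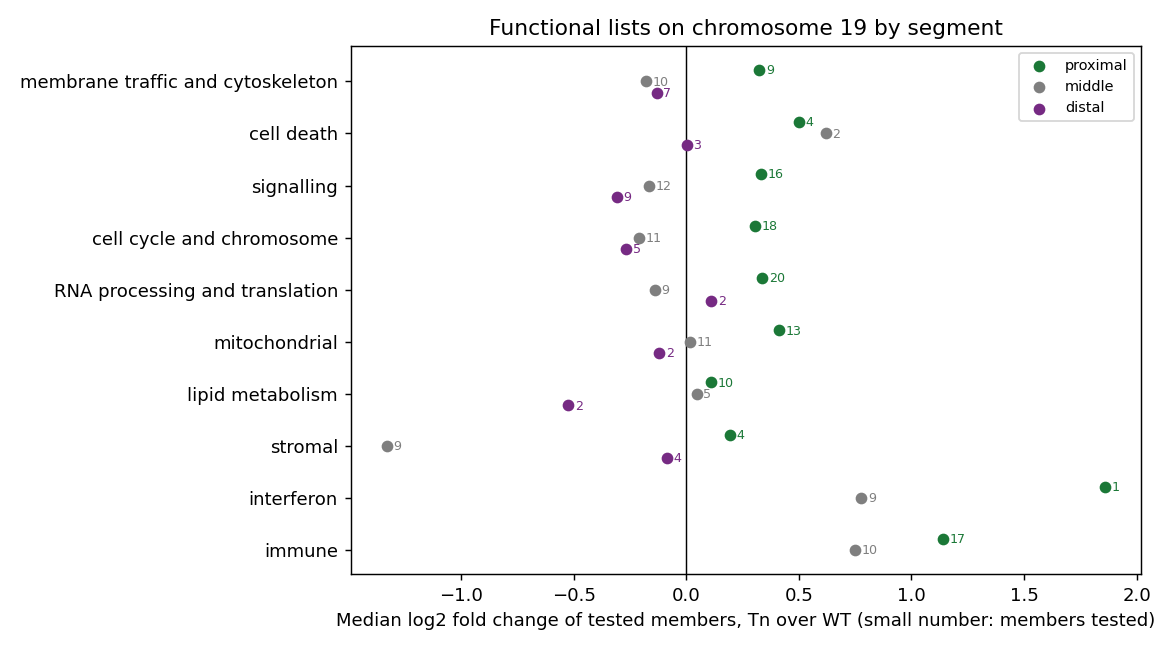
Median log2 fold change, Tn over WT, of the tested members of 10 functional lists (vertical axis) in the proximal, middle and distal segments, with the number of members beside each point. The proximal points of the mitochondrial, RNA processing, cell cycle, signalling and membrane traffic lists lie between 0.30 and 0.41 and their other points between -0.31 and 0.11; cell death is higher in the middle (0.62) than in the proximal segment (0.50), lipid metabolism is at 0.11 proximally, and the middle stromal point is at -1.33.

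Immune genes rose on both sides of the 20 Mb border. Of 17 tested proximal immune members 15 rose and 0 fell, with a median of 1.14, and of 10 middle members 6 rose and 1 fell. Lpxn, the leukocyte adaptor leupaxin, had 3.43 to 8.29 CPM in WT (median 5.43) and 11.7 to 30.8 CPM in Tn tumours (median 22.9), a change of 1.97 (SE 0.29, edgeR adjusted p = 0.000445). Batf2, a transcription factor induced by interferon, had 1.08 to 18.5 CPM in WT and 23.1 to 58.9 CPM in Tn tumours, a change of 1.86 (SE 0.50, edgeR adjusted p = 0.0116). Ms4a4b, a membrane protein of T cells, had 0.646 to 4.14 CPM in WT and 4.94 to 69.5 CPM in Tn tumours, a change of 3.47 (SE 0.70, edgeR adjusted p = 0.00257), or 2.57 without Tn tumour 4. None of these 3 genes overlapped between the groups. Leukocyte markers were higher in 6 of 7 cases, but their summed levels in Tn tumours 3 and 5, at 959 and 854 CPM, lay within the WT range of 811 to 1048 CPM. A relation between the 3 genes and the markers was not tested.

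On the middle segment the interferon and checkpoint genes rose against the direction of their neighbours. Of its 9 interferon members, 4 of them also on the immune list, 7 rose and 1 fell. Pdcd1lg2, the checkpoint ligand PD-L2, had 0.367 to 1.8 CPM in WT (median 0.74) and 6.86 to 31.7 CPM in Tn tumours (median 8.22), the largest rise of any member tested at 3.78 (SE 0.51, edgeR adjusted p = 0.000226). Cd274, the ligand PD-L1 that lies beside it, was named after its values were seen; it rose by 1.28 (edgeR adjusted p = 0.0234), a call lost without Tn tumour 2 (adjusted p = 0.0547) and without the filter on low counts (adjusted p = 0.0647). Fas, the death receptor, had 2.39 to 4.34 CPM in WT and 6.95 to 15.9 CPM in Tn tumours, a change of 1.57 (SE 0.22, edgeR adjusted p = 0.000291). Ifit2 and Ifit3, antiviral effectors in a row of interferon-induced genes, rose by 0.83 and 0.78. The 1 fall, Jak2, the kinase of interferon gamma and cytokine receptors, stood at -0.49 with an edgeR adjusted p of 0.0483, which missed the threshold without any 1 of WT tumours 1, 2, 3 and 5 or of the 6 Tn tumours; its change was -0.33 without WT tumour 2. Blnk, an adaptor of the B cell receptor that also serves myeloid cells, had 3.05 to 5.12 CPM in WT and 5.23 to 48.1 CPM in Tn tumours, a change of 1.90 (SE 0.49, edgeR adjusted p = 0.00992), or 1.10 without Tn tumour 4, the tumour with the highest B cell markers.

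Most falls of stromal members were in the middle segment. Of 9 middle stromal members 0 rose and 5 fell, with a median of -1.33; of 4 proximal members 2 rose and 1 fell and of 4 distal members 1 rose and 1 fell. Acta2, the smooth muscle actin of myofibroblasts, had 209.9 to 398 CPM in WT (median 345) and 35.9 to 159 CPM in Tn tumours (median 84.5), a change of -1.81 (SE 0.31, edgeR adjusted p = 0.000928). Loxl4, an oxidase that crosslinks collagen, had 31.8 to 104 CPM in WT (median 60.1) and 8.74 to 22.9 CPM in Tn tumours (median 12.3), a change of -2.10 (SE 0.31, edgeR adjusted p = 0.000378). Neither gene overlapped between the groups, and fibroblast markers were lower with them, in 6 of 7 cases. On the proximal segment Cd248, the pericyte and fibroblast protein endosialin, fell by 0.98 (SE 0.29, edgeR adjusted p = 0.0196), a call that was lost without Tn tumours 4 and 6 and WT tumour 6 and without the filter on low counts. Fibp, a protein that binds a fibroblast growth factor, rose by 0.56. Without the members of the immune, interferon and stromal lists the 3 segment medians were 0.32, -0.11 and -0.26, so the order of the segments was the same among the other genes.

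The 6 proximal genes that fell stood against their surroundings. Pcsk5, a proprotein convertase, had 25.6 to 61.4 CPM in WT (median 46.1) and 6.16 to 13.3 CPM in Tn tumours (median 10.3), a change of -2.19 (SE 0.25, edgeR adjusted p = 8.76e-05). Its neighbour Gcnt1, the core 2 enzyme that branches O-glycans and so acts on the product of the pathway that C1galt1c1 serves, moved the other way: it had 3.72 to 8.53 CPM in WT (median 4.76) and 14.3 to 28.1 CPM in Tn tumours (median 18.5), a change of 1.86 (SE 0.22, edgeR adjusted p = 9.68e-05). Neither of these neighbours overlapped between the groups. Fads3, of the fatty acid desaturase family, had 21.9 to 54.4 CPM in WT (median 36.1) and 7.91 to 17.2 CPM in Tn tumours (median 11.3), a change of -1.61 (SE 0.22, edgeR adjusted p = 0.00024). Cpt1a, which carries fatty acids into mitochondria, fell from 87.7 to 111 CPM in WT to 58.9 to 86.2 CPM in Tn tumours, a change of -0.50 (SE 0.09, edgeR adjusted p = 0.00173). Neither overlapped either. Beside Cd248, the remaining falls, named after their values were seen, were Psat1, an enzyme of serine synthesis, at -0.24 (edgeR adjusted p = 0.0187) and Rin1, an exchange factor for Rab5, at -0.30 (edgeR adjusted p = 0.0356), and the Rin1 call was lost without any 1 of WT tumours 1 to 4 or Tn tumours 3 to 6.

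Some proximal genes with many counts did not share the level of the segment. Ahnak, a giant scaffold protein, had 950.1 to 1565 CPM in WT and 799 to 1183 CPM in Tn tumours, and its change of -0.25 had no call (edgeR adjusted p = 0.138). Fth1, the heavy chain of the iron store ferritin, rose more than the segment, from 1528 to 2295 CPM in WT (median 1997) to 2720 to 5131 CPM in Tn tumours (median 4176), a change of 1.04 (SE 0.16, edgeR adjusted p = 0.000462) without overlap; its exons overlap another gene over 18.7% of their length. Lrfn4, a synaptic adhesion protein, and Wdr74, a factor of ribosome assembly, were the members nearest the segment median, each with a change of 0.35, and both rose.

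The lipid list had 2 rises and 2 falls among 10 proximal members, 2 rises and 0 falls among 5 middle members and 0 rises and 1 fall among 2 distal members; 1 of the proximal rises was Fth1, which stores iron. The middle segment held desaturases with a wide spread between tumours. Scd1, the stearoyl-CoA desaturase of lipid-storing tissue, ran from 96.9 to 4383 CPM in WT (median 984) and from 154 to 809 CPM in Tn tumours (median 265). The groups overlapped and its change of -1.94 did not pass the test (SE 0.75, edgeR adjusted p = 0.0604), though it did with DESeq2 (adjusted p = 0.0355) and without WT tumour 1, WT tumour 2 or Tn tumour 4 (adjusted p = 0.0224, 0.0397 and 0.0376). Its change was -1.10 without WT tumour 6 (adjusted p = 0.193) and -1.16 with the replicate number as a block (adjusted p = 0.332); adipocyte markers ran from 21.5 to 1179 CPM in WT tumours. Scd2, its close relative, ran from 657 to 1032 CPM in WT and from 628 to 1087 CPM in Tn tumours, with a change of 0.05 and no call (edgeR adjusted p = 0.812), a direction that turned with upper-quartile scaling. Rbp4, the carrier of retinol in blood, fell by 2.38 (SE 0.64, edgeR adjusted p = 0.012), and by 1.65 without WT tumour 6, the tumour with the highest adipocyte markers.

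Other strong falls of the middle segment were in genes of lipoprotein uptake and of podosomes. Vldlr, the very low density lipoprotein receptor, had 8.31 to 16.7 CPM in WT (median 13.3) and 2.03 to 5.95 CPM in Tn tumours (median 2.75), a change of -1.90 (SE 0.30, edgeR adjusted p = 0.000622). Sh3pxd2a, the podosome scaffold TKS5, had 187 to 221 CPM in WT (median 211) and 116 to 139 CPM in Tn tumours (median 128), a change of -0.71 (SE 0.06) with the smallest adjusted p of those named here (edgeR, 1.41e-05). In both genes every Tn tumour was below every WT tumour. Htr7, a serotonin receptor, rose by 1.57 from low levels, with WT tumours at 1.66 to 5.69 CPM and Tn tumours at 5.51 to 17.3 CPM, which overlapped. Uhrf2, a reader of modified DNA, and Gbf1, an exchange factor of the Golgi, both at -0.10 and without a call, lay nearest the median of the segment.

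Of the 33 distal members 15 fell, 4 rose and 14 had no call. Eif3a, the largest subunit of the translation initiation factor eIF3, had 515 to 615 CPM in WT (median 531) and 397 to 442 CPM in Tn tumours (median 431), a change of -0.38 (SE 0.06, edgeR adjusted p = 0.000783). Nhlrc2, a thioredoxin-like protein, had 49.5 to 60.9 CPM in WT (median 56.3) and 32.5 to 43.3 CPM in Tn tumours (median 37.1), a change of -0.58 (SE 0.08, edgeR adjusted p = 0.000316). Xpnpep1 and Atrnl1, a relative of attractin, fell by 0.31 and 0.52. In all 4 genes the groups did not overlap. Gpam, which starts the synthesis of triglycerides, fell by 0.77 (SE 0.22, edgeR adjusted p = 0.0169) with overlapping groups, and Shtn1, a protein of axon growth, by 0.46 (SE 0.13, edgeR adjusted p = 0.0135), a call lost without Tn tumours 4 and 6 and WT tumour 6. Shoc2, a scaffold of the Ras pathway at the centre of the segment's values, fell by 0.26, and Acsl5, which activates fatty acids, stood at -0.28 without a call.

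The 4 distal genes that rose were few but included 1 of the larger changes. Afap1l2, an adaptor of Src signalling, had 7.13 to 14.2 CPM in WT (median 11.2) and 23.3 to 57.1 CPM in Tn tumours (median 35.5), a change of 1.78 (SE 0.25, edgeR adjusted p = 0.0003). Csf2ra, the receptor subunit for the myeloid growth factor GM-CSF, had 16.1 to 22.9 CPM in WT (median 20.1) and 23.9 to 53.0 CPM in Tn tumours (median 37.4), a change of 0.91 (SE 0.20, edgeR adjusted p = 0.00421). Neither of them overlapped between the groups; macrophage markers were higher in 4 of 7 cases, with summed levels of 514 to 825 CPM in WT and 720 to 2034 CPM in Tn tumours. Add3 rose by 0.73 (SE 0.20, edgeR adjusted p = 0.0134). Pdcd4, an inhibitor of translation initiation, rose by 0.60 (SE 0.19, edgeR adjusted p = 0.0288), or 0.37 without Tn tumour 4, and its call was lost without WT tumour 2, 4 or 5 (adjusted p = 0.0536, 0.0617 and 0.0538).

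The segments also differed in features that the rule did not use. The median GC content of exons was 54.1% in the proximal, 47.5% in the middle and 46.2% in the distal segment, against 49.3% over the 10950 genes, and the median span of a gene was 11.98, 33.6 and 45.4 kb. Exons overlapped those of another annotated gene in 43.8%, 32.3% and 24.2% of members. GC content moved with the fold change over the whole genome: the median of all genes was -0.03 in the lowest GC decile and between 0.10 and 0.13 in the highest 3. With the median of its GC decile subtracted from each gene, the segment medians were 0.24, -0.15 and -0.25. Among genes of under 45% exon GC the proximal median was 0.19 over 18 members and the middle median -0.15 over 56, and among genes of 55% and over they were 0.37 over 84 and 0.05 over 26, so the proximal genes lay above the middle genes at like GC content. Without members whose exons overlap another gene, the medians were 0.35, -0.11 and -0.21.

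**Figure D5:**
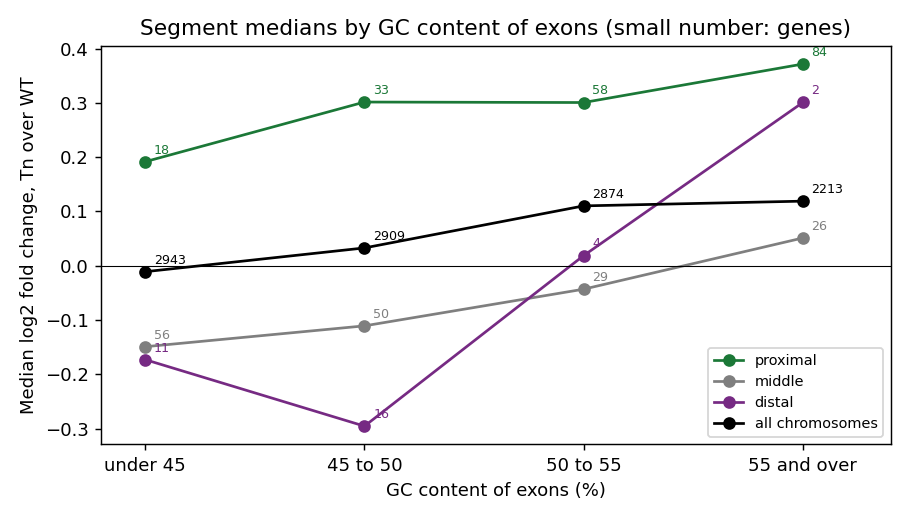
Median log2 fold change, Tn over WT (vertical axis), of the members of each segment and of all 10950 protein-coding genes in 4 classes of exon GC content (horizontal axis, in percent), with the number of genes beside each point. The proximal line lies between 0.19 and 0.37 and above the line of all chromosomes in every class; the distal points at the 2 higher classes rest on 4 and 2 genes.

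The proximal segment was the highest in each class of expression. In proximal members of 5 to 20, 20 to 100 and 100 or more CPM the medians were 0.37, 0.35 and 0.32, over 39, 103 and 51 genes. In the middle segment they were -0.06, -0.06 and -0.33, and in the distal segment -0.13, -0.22 and -0.30, over 5, 24 and 4 genes, so that the middle genes of 100 or more CPM were as low as the distal ones. Among genes below the floor, which are no members, medians of protein-coding genes of 1 to 5 CPM had the same order: 0.25 over 30 proximal, -0.27 over 25 middle and -0.76 over 10 distal genes. The proximal levels of these genes overlapped between the groups, from -0.16 to 0.31 in Tn and from -0.12 to 0.08 in WT tumours. Of the 30 proximal genes 7 rose and 2 fell, against 19.5% called higher and 17.4% lower over all genes tested. The distal levels did not overlap, from -1.14 to -0.33 in Tn and from -0.30 to 0.22 in WT tumours. Long non-coding genes had medians of 0.39 over 35 proximal and -0.07 over 26 middle genes, but 0.23 over 7 distal genes, and genes of other types 0.11 over 23 proximal, -0.08 over 19 middle and 0.09 over 6 distal genes, so that the distal end was not lower than the middle in either class.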

How the data were processed

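Total RNA of 12 tumours, 6 WT and 6 Tn, grouped by the sample titles, was sequenced as stranded poly(A) libraries, read in pairs. Per the submitters' processing notes the reads were trimmed with fastp 0.23 and aligned to GRCm39 with STAR 2.7.11a. The authors deposited 1 table of raw counts per gene, made with featureCounts 2.1.1 over the exons of Ensembl release 112, per the file headers. Strand was not used, and the mates of a pair were counted singly: 66.4% to 72.5% of low counts were even numbers. The column totals of 113575859 to 156880766 exceed the read number that the series text gives, and the counts are not independent fragments. No column of the table belonged to another sample. The deposited gene length, in another unit, was used only as a feature. Symbols and gene types came from GENCODE M39, a later release, for 56630 of 57186 identifiers.

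The counts were fitted over all chromosomes with edgeR 4.0.16 in R 4.3.3 (trimmed mean of M-values (TMM) scaling, the filter on low counts by group, robust quasi-likelihood test), which tested 19255 genes at a common biological coefficient of variation of 0.358, with Benjamini-Hochberg adjustment over all of them and a threshold of 0.05. The floor and the classes of expression used CPM on column totals. Other levels are CPM on the summed counts of the tested genes, scaled by TMM. Log2 levels per tumour used the same scaled sums and a pseudocount of 0.5, and fold changes are edgeR's. On simulated counts of 19255 genes in this design of 12 tumours, 8% of changes of 1.25-fold, 50% of 1.5-fold, 82% of 2-fold and 94% of 4-fold were recovered, with 2 false calls. Far fewer genes were changed in the simulation than the 36.8% called in these tumours. The adjustment was therefore stricter there, and these shares do not give the sensitivity of the present fit. GC content, overlaps and upstream sequence were read from GRCm39.

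Members and lists were chosen with earlier results of these data known. Named genes are, in each segment, the 4 largest called rises and falls, the 3 members with the most counts, the 2 nearest the median, the 2 at each side of a border and up to 3 members of each list by smallest p; others are said to have been named after their values were seen, and some genes are not reported here. Alternatives were 3 other scalings, DESeq2 1.42.0, no filter, the replicate number as a block, leaving out tumours, other floors (1 and 20 CPM) and borders (15 and 45 Mb, 25 and 55 Mb), leaving out list members, the mean for the median and, chosen after the data were seen, subtracting GC decile medians and leaving out members with overlapping exons.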

Additional observations from a re-analysis of the deposited data

Results flagged for a closer look

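In 6 cases 1 tumour of a group of 6 stood apart: on the log2 scale its gap to the nearest of the others, as a share of the range of the group, was above Dixon's critical value. Chance alone does this in about 1 in 20 groups, and 146 groups were examined. WT tumour 1 had 27.97 CPM of Cd248 against a WT median of 60.4 CPM. WT tumour 6 had 1.08 CPM of Batf2 against a WT median of 9.55 CPM. Tn tumour 2 had 31.7 CPM of Pdcd1lg2 against a Tn median of 8.22 CPM. Tn tumour 4 had 84.1 CPM of Pdcd4 against a Tn median of 41.7 CPM. Gpam stood apart in both groups, with 83.01 CPM in WT tumour 6 against a median of 39.6 CPM and 38.3 CPM in Tn tumour 4 against a median of 25.4 CPM. Of these tumours, WT tumour 6 had the highest summed adipocyte markers and Tn tumour 4 the highest summed B cell markers; their part in these values was not tested.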

How the results depend on the processing

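The signs of the 3 segment medians and of the distal minus proximal difference (-0.52, Tn mean minus WT mean) held under every alternative run. Leaving out each tumour in turn gave 105 to 122 rises and 5 to 7 falls in the proximal segment (median 0.32 to 0.37), 16 to 25 and 33 to 41 in the middle (-0.13 to -0.06), 3 to 4 and 13 to 16 in the distal (-0.30 to -0.19), and a difference of -0.55 to -0.48. Other values that moved follow, and their cause was not tested except where fewer members enter. Upper-quartile scaling, which moves the median of all genes by -0.05, gave 16 rises and 55 falls and a median of -0.15 in the middle segment. Borders at 15 and 45 Mb gave 8 distal rises, a distal median of -0.11 and a difference of -0.44; borders at 25 and 55 Mb gave 10 proximal falls and 2 distal rises. The mean over members gave -0.10 for the distal segment. Subtracting GC decile medians gave a proximal median of 0.24. With fewer members, there were 60 proximal rises among 108 tested without overlapping exons, and 11 middle rises both at a floor of 20 CPM and without the immune, interferon and stromal lists. Without Tn tumours 4 and 6 and WT tumour 6 there were 9 distal falls. The uncalled Scd2 turned to -0.0074 with upper-quartile scaling, and leaving out each tumour moved it between -0.029 and 0.13.

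The replicate numbers are not stated to pair the tumours. Same-numbered deviations correlated at -0.12 to 0.16, and no WT tumour correlated best with the Tn tumour of its own number. Weak correlations cannot exclude a pairing. The fit with the replicate block gave 106 rises and 6 falls proximally, 15 and 42 in the middle and 3 and 14 distally, with medians of 0.33, -0.10 and -0.26; of the named genes Blnk, Pdcd4 and Jak2 missed the threshold in it (adjusted p = 0.052, 0.0692 and 0.0651). Of 69 named genes 58 kept their call and direction under every alternative. The simulated counts, with far fewer changed genes, do not give the sensitivity of this fit to changes as small as the distal median. Distal members without a call are not shown to be unchanged.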
